A study of Mus musculus with 6 samples.

Results

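A set of 10 genes of the Notch pathway, of the 30462 genes in the table, was followed in the mouse cochlea, where sound is sensed, at postnatal day 7. They were chosen by name: the receptor genes Notch1, Notch2 and Notch3, the ligand genes Jag1 and Dll1, the fringe gene Lfng, and the target genes Hes1, Hes5, Hey1 and Hey2. RNA of the cochlea was sequenced in 6 libraries, 3 with the genotype label NEU4 KO (knockout replicates 2, 4 and 5) and 3 labelled WT (wild type replicates 3, 4 and 5), at the same age and from the same tissue. Neu4 encodes a sialidase, which trims sialic acid off the sugar chains of proteins and lipids. The labels give neither the allele nor the strain, sex or number of animals behind each library, so p-values here weigh differences only against the spread of these libraries, which may be technical. Values by library are given in the order knockouts 2, 4 and 5, then wild types 3, 4 and 5.

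Notch signalling passes from cell to cell by contact. A ligand of the Delta or Jagged family on one cell binds a Notch receptor on its neighbour, the receptor is cut first by an ADAM protease and then by gamma-secretase, and its intracellular part joins the DNA-binding protein RBPJ to switch on target genes, chiefly repressors of the Hes and Hey families. Fringe enzymes such as Lfng lengthen the O-fucose sugars of the receptor, which can end in sialic acid, and so change which ligand it answers. In the developing organ of Corti, Jag1 marks the prosensory domain and supporting cells, while Dll1 and Jag2 on hair cells keep neighbouring cells from becoming hair cells through Hes5, Hes1 and Hey genes. In vessels, Notch3 is the receptor of mural cells, the smooth muscle cells and pericytes of the wall, and Notch1, Jag1, Hes1, Hey1 and Hey2 are active in arteries as well as in the sensory epithelium.

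The DNA site of RBPJ links the receptors to the target genes, so the stretches before the start of the members that hold it are shown first. The motif GTGGGAA was searched on both strands in the 250 bases before each RefSeq start (GRCm38.p6). Of the 8 members with an entry, 3 held it (Hes5, Lfng and Hey2), and 5.42% of all 32851 entries did. Hes1 and Hey1 were not matched to an entry. Hes5 held 2 matches, on opposite strands, with their upstream ends 226 and 83 bases before the start. The match of Lfng was 109 bases before its start and that of Hey2 207 bases before. Capitals mark the motif or its reverse complement. Each sequence runs 5′ to 3′ on the gene's strand and is printed only up to the first base of any annotated exon, so that of Lfng and of Hey2 ends before the RefSeq start.
Hes5, chr4:154960673-154960922, plus strand: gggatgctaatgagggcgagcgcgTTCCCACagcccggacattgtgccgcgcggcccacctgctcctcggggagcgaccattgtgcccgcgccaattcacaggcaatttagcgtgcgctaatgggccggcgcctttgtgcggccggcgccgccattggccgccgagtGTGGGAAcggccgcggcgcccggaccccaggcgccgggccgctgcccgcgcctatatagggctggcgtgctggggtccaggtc
Lfng, chr5:140607091-140607319, plus strand: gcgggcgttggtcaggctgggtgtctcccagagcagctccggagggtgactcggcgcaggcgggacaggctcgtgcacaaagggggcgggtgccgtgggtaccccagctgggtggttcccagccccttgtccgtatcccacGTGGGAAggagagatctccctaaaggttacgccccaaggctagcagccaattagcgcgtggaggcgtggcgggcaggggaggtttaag
Hey2, chr10:30842802-30843033, minus strand: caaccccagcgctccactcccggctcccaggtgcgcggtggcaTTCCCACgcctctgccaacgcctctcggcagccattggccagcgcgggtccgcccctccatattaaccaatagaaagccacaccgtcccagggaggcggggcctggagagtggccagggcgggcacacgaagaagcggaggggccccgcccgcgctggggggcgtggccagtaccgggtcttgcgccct
A match describes these letters only and is not evidence of binding.

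The libraries were of similar depth, with totals implied by the values of 15170973 to 17192293 fragments. By Xist and Ddx3y, the males were knockout 2 and wild types 3 and 4, and the other 3 libraries were female. The targeted gene did not check the labels, with 4, 8 and 6 fragments of Neu4 in the knockout libraries and 4, 8 and 6 in the wild type libraries, so that knockout means the library so labelled. Hair cell and supporting cell markers were present, with Otof at 6.88 to 8.62 FPKM, Gjb2 at 59.9 to 76.9 FPKM and Tectb at 93.9 to 116 FPKM, while Atoh1, the factor of newly forming hair cells, was at 0.141 to 0.362 FPKM. FPKM is the fragment count scaled by exon length and library size, so levels can be set side by side between genes. In whole tissue, fewer cells of a type and less RNA per cell cannot be told apart.

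The members covered a wide range of levels. In wild type cochlea Notch2 stood first at 19.8 FPKM and Hes1 beside it at 19.8, followed by Hey1 at 17.3, Lfng at 16.4, Notch3 at 14.1, Notch1 at 8.57, Jag1 at 8.28, Hey2 at 2.60, Dll1 at 2.26 and Hes5 at 0.151 (means, n = 3). The ranges over wild type libraries overlapped between Notch2 and Hes1, Hes1 and Hey1, Hey1 and Lfng, Notch1 and Jag1, and Hey2 and Dll1. Within each wild type library Hey1 was above Lfng and Hey2 above Dll1, while the other pairs changed order between libraries. The order of these neighbours was not tested. The gaps from Lfng to Notch3, from Notch3 to Notch1, from Jag1 to Hey2 and from Dll1 to Hes5 were free of overlap. Further apart in the order, Notch2 (18.8 to 20.8) overlapped neither Hey1 (16.6 to 17.8) nor Lfng (15.9 to 16.6). Hes1, with its lowest value at 16.9, did not overlap Lfng. Below these genes came Notch3 alone, a middle pair of Notch1 and Jag1, a low pair of Hey2 and Dll1, and Hes5 near 0.

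**Figure D1:**
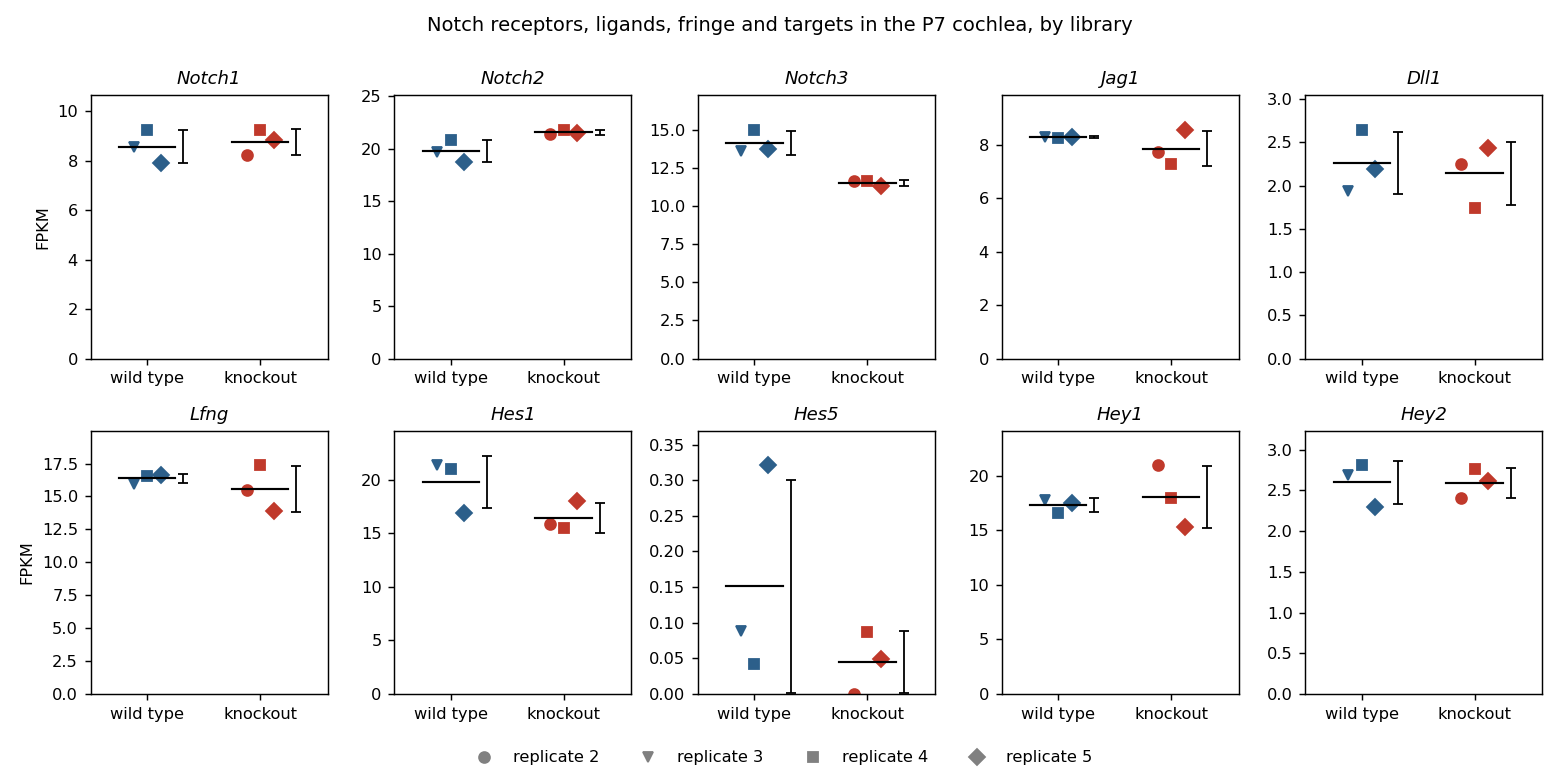
FPKM of the 10 members (vertical axis, from 0) in each wild type (blue) and knockout (red) library, with the replicate number as the symbol, the group mean as a horizontal line and its SD as a bar (n = 3). The 3 knockout values of Notch3, 11.3 to 11.6, lie below the 3 wild type values, 13.6 to 15.0, and those of Notch2 lie above, while the groups overlap in the other 8 panels.

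Between the genotypes no member passed the test. Of the 9 members tested, 0 were called (limma on log2(FPKM + 1), Benjamini-Hochberg adjusted p under 0.05 over all genes tested), where 0.334% of all 14072 genes tested were called. The groups did not overlap in 2 of the 9, Notch3 and Notch2, against 24.8% of all genes tested. At an unadjusted p under 0.05 there were 3, Notch3 and Hes1 lower and Notch2 higher in knockout, against 17.6% of all genes tested. The median log2 fold change was -0.05 over the 9 members and 0.02 over all genes tested, and that of the members was -0.0057 without knockout 5, -0.024 without knockout 4 and 0.022 without wild type 4. With voom (limma) on the fragments recovered from the FPKM values, 1 member was called, Notch3, where 1.99% of 17141 genes were. Notch3 and Notch2, the 2 members without overlap, were both listed here under vessel wall and mesenchyme and lay in opposite directions. As this count is no larger than the share of all genes tested, it gives no contrast between tissues. The 5 members listed under both sensory epithelium and vessels overlapped between the groups. So did the 2 tested members listed under the sensory epithelium alone, Dll1 and Lfng. These settings were assigned by known expression, and whole-tissue libraries do not show which cells the RNA came from.

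Notch3, the receptor of mural cells (ENSMUSG00000038146, chromosome 17, 32120820 to 32166852, minus strand, GRCm38), had the smallest p of the members. Its FPKM was 11.6, 11.6 and 11.3 in the knockout libraries and 13.6, 15.0 and 13.7 in the wild type libraries. All 3 knockout libraries lay below all 3 wild type libraries, a separation in this direction that 9.54% of all genes tested showed, and the knockout values were closer to each other than the wild type values were. The knockout mean was 81.7% of the wild type mean, a log2 fold change of -0.27 (SE 0.051, 95% interval -0.39 to -0.15, n = 3, limma adjusted p = 0.0924). By voom it was -0.29 (adjusted p = 0.0272), and without any 1 library it stayed between -0.29 and -0.23 (limma adjusted p = 0.129 to 0.240). The difference had the same sign within each sex, with 11.6 FPKM in the male knockout against a mean of 14.3 in male wild types, and a mean of 11.5 in female knockouts against 13.7 in the female wild type. Each library held 1388 to 2086 fragments of the gene, a counting error of 2.42% of the mean library.

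Notch2, a receptor of broad expression in mesenchyme and bone (ENSMUSG00000027878, chromosome 3, 98013527 to 98150361, plus strand), went the other way. It had 21.4, 21.8 and 21.5 FPKM in the knockout libraries and 19.7, 20.8 and 18.8 in the wild type libraries. The groups did not overlap, with the lowest knockout library just above wild type 4, and 15.2% of all genes tested were separated in that direction. The log2 fold change was 0.12 (SE 0.048, 95% interval 0.01 to 0.23, n = 3, limma adjusted p = 0.257). Notch1, the receptor of the sensory epithelium and of endothelium (ENSMUSG00000026923, chromosome 2, 26457903 to 26516663, minus strand), had 8.21, 9.26 and 8.86 FPKM in the knockout libraries against 8.56, 9.24 and 7.90 in the wild type libraries. Its groups overlapped, and its interval ran from -0.13 to 0.20 on the log2 scale (limma adjusted p = 0.846). In both groups replicate 4 was the highest library for Notch1, and its values in the 2 sexes differed in direction, with a log2 difference of -0.10 in males and 0.18 in females.

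The ligand genes among the members overlapped between the groups. Jag1 (ENSMUSG00000027276, chromosome 2, 137081456 to 137116644, minus strand) had 7.71, 7.29 and 8.56 FPKM in the knockout libraries, and its wild type values, 8.30, 8.26 and 8.30, were almost equal. Knockout 5 was above and knockouts 2 and 4 were below all wild types. The log2 fold change was -0.07 (SE 0.063, 95% interval -0.22 to 0.08, n = 3, limma adjusted p = 0.594). Dll1, the Delta ligand of nascent hair cells (ENSMUSG00000014773, chromosome 17, 15367354 to 15376872, minus strand), had 2.25, 1.74 and 2.44 FPKM in the knockout and 1.94, 2.65 and 2.19 in the wild type libraries. Replicate 4 was the lowest of the knockouts and the highest of the wild types. Its SD was 16.9% of the mean in knockout and 15.9% in wild type, where counting error at 124 to 192 fragments a library is 8.11%. The interval of its log2 fold change was -0.34 to 0.23 (limma adjusted p = 0.847).

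Lfng, the fringe enzyme of the sensory epithelium (ENSMUSG00000029570, chromosome 5, 140607320 to 140615545, plus strand), had 15.5, 17.4 and 13.9 FPKM in the knockout libraries and 15.9, 16.6 and 16.6 in the wild type libraries. The highest and the lowest library were both knockouts, with all wild types between them. The log2 fold change was -0.07 (SE 0.077, 95% interval -0.25 to 0.11, n = 3, limma adjusted p = 0.670). The SD was 11.2% of the mean in knockout and 2.29% in wild type, where the counting error of the mean library is 3.90%. Jag1 and Hey1 also had the larger SD in knockout, at 8.25% and 15.7% of the mean, against 0.296% and 3.67% in wild type. Their counting errors are 3.60% and 3.25%. The wild type SDs of Lfng and Jag1 thus lay below counting error, and that of Hey1 was near it. Such small values cannot be read as a true spread, and the difference in spread was not tested. Notch1, Notch2, Notch3, Hes1 and Hey2 had the smaller relative SD in knockout.

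Among the 3 tested targets, Hes1, a repressor that Notch switches on in many tissues (ENSMUSG00000022528, chromosome 16, 30064384 to 30067796, plus strand), differed most in its means. It had 15.8, 15.5 and 18.0 FPKM in the knockout libraries and 21.4, 21.02 and 16.9 in the wild type libraries. Wild type 5, the female wild type, lay within the knockout range, so that the groups overlapped. The log2 fold change was -0.25 (SE 0.098, 95% interval -0.48 to -0.02, n = 3, limma adjusted p = 0.257), and leaving out 1 library gave values from -0.35 without wild type 5 to -0.19 without wild type 3. Within males the log2 difference was -0.40 (1 knockout, 2 wild types), and within females it was -0.01 (2 knockouts, 1 wild type). With sex as a covariate the log2 fold change was -0.21 (limma adjusted p = 0.343).

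Hey1 and Hey2 encode related repressors with roles in supporting cells and in arteries. Hey1 (ENSMUSG00000040289, chromosome 3, 8663359 to 8667256, minus strand) had 20.97, 18.0 and 15.3 FPKM in the knockout libraries, a range that held all wild type values, 17.8, 16.6 and 17.5. Its log2 fold change was 0.05 (95% interval -0.19 to 0.29, limma adjusted p = 0.829) and changed sign without knockout 2 (-0.06). Hey2 (ENSMUSG00000019789, chromosome 10, 30832359 to 30842801, minus strand) had 2.40, 2.77 and 2.61 FPKM in the knockout and 2.69, 2.81 and 2.30 in the wild type libraries. The means were 2.59 and 2.60 FPKM, and the interval of the log2 fold change was -0.20 to 0.20 (limma adjusted p = 0.994).

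Hes5, the target most closely tied to Notch activity in the developing organ of Corti, was at the limit of detection. It had 0, 2 and 1 fragments in the knockout libraries and 2, 1 and 7 fragments in the wild type libraries, over 1363 bp of exons (ENSMUSG00000048001, chromosome 4, 154960923 to 154962371, plus strand). These are 0, 0.0867 and 0.0484 FPKM in knockout and 0.0889, 0.0427 and 0.321 FPKM in wild type. The 0 of knockout 2 allows up to 0.132 FPKM, the worth of 3 fragments, and covers counting error only. Hes5 was below the filter of 1 FPKM in at least 3 libraries and was not tested with the other genes. Per library fragment, Hes5 in knockout was 0.306 times its wild type level (exact 95% interval 0.0541 to 1.19), and without wild type 5, which held 7 of the 10 wild type fragments, it was 0.691 (0.0926 to 5.16). Both intervals pool the fragments of each group, so they cover counting error only and not the spread between libraries. By an exact two-sided permutation test on FPKM, p = 0.4, in a design whose smallest possible p is 0.1.

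Hes5 shares part of its exons with another gene. In the annotation (GENCODE M21), 31.8% of the exonic bases of Hes5 lie in exons of the non-coding gene Gm20421 on the other strand, and 930 bases lie in no other gene. Among protein-coding genes with no shared exonic base, the median of the mean FPKM was 3.33 (12073 genes). It was 4.18 with up to 20% shared (4713 genes) and 2.28 with more than 20% and up to 50%, the range that holds Hes5 (929 genes). Above 50% and up to 80% it was 0.455 (249 genes), and above 80% it was 0.0554 (89 genes). Within the range of Hes5, Epyc, a supporting cell marker with 40.6% shared, had a mean of 66.2 FPKM, and Snw1, a Notch coactivator with 44.2% shared, had 6.14 FPKM. Nrarp, a Notch target that feeds back on the receptor, has 79.4% of its exonic bases shared and had a mean of 0.642 FPKM. Tagln, a smooth muscle gene with 67.9% shared, had a mean of 0.132 FPKM. Dll1 has 20.5% shared and Notch1 9.76%, while Jag1, Lfng, Hes1, Hey1 and Hey2 have none. How the counting treated strand and fragments of shared exons was not stated in the labels, and the part of exon sharing in these low values was not tested.

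**Figure D2:**
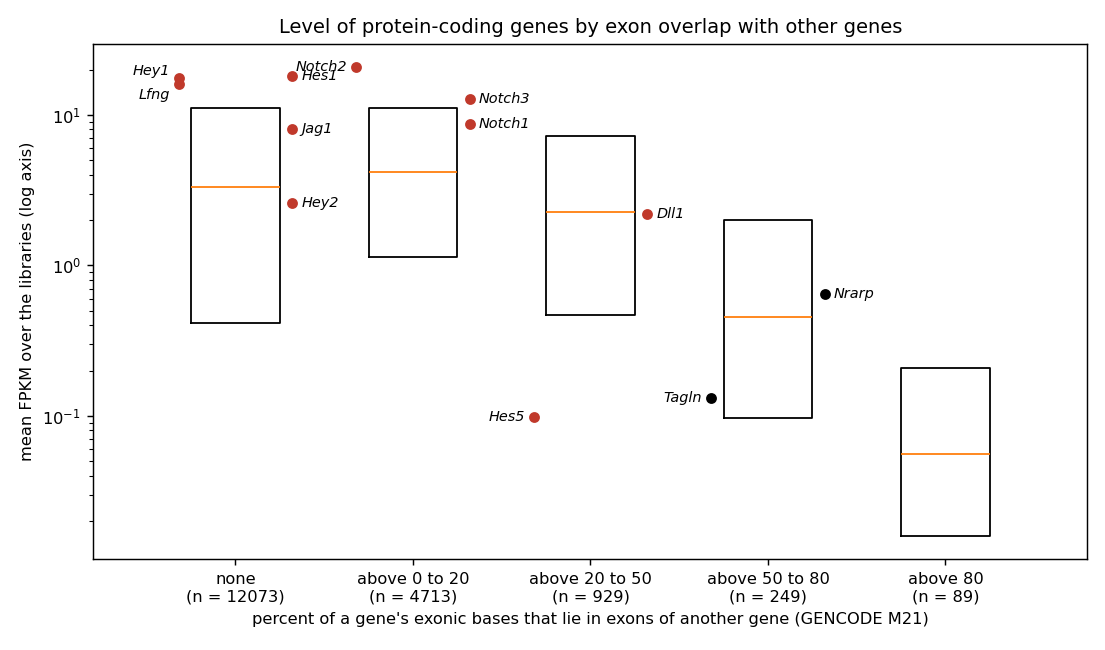
Mean FPKM over the 6 libraries (log axis) of protein-coding genes, grouped by the percent of exonic bases that lie in exons of another gene. Boxes run from the lower to the upper quartile with the median as a line, and points are the members (red) and Nrarp and Tagln (black); the medians from left to right are 3.33, 4.18, 2.28, 0.455 and 0.0554, and Hes5 lies below the quartile box of its group.

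Because Notch3 belongs to the vessel wall, its values were set beside markers of mural and endothelial cells. Of 12 mural cell markers tested, 10 had a negative log2 fold change, as had 43.1% of all genes tested. Of the 12, 0 were called (limma), where 0.334% of all genes tested were, and the median was -0.22. The summed FPKM of the 14 listed markers was 205 to 234 in knockout and 260 to 300.3 in wild type, without overlap, and 0 of them were at 0 in any library. Myh11, the smooth muscle myosin, had 1.67, 1.29 and 3.18 FPKM in the knockout libraries against 4.66, 8.28 and 6.69 in the wild type libraries (log2 fold change -1.33, SE 0.254, limma adjusted p = 0.0924). Acta2, smooth muscle actin, had 58.1, 38.2 and 47.8 against 75.0, 100.4 and 103 FPKM. The pericyte markers were mixed. Kcnj8, a potassium channel subunit (log2 -0.48), and Anpep (-0.32, limma adjusted p = 0.0548) were lower in all knockout libraries. So was Higd1b, which was not tested. Abcc9, the partner of Kcnj8 (0.22), Pdgfrb (-0.08), Rgs5 (0.07), Cspg4 (-0.11), Vtn (-0.10) and Ndufa4l2 (-0.01) overlapped between the groups. Taken relative to the mean log2 level of the mural list, Notch3 stood at 0.37, 0.52 and 0.33 in the knockout libraries and at 0.42, 0.44 and 0.23 in the wild type libraries. On this scale the groups overlapped, with a difference of 0.05, and of -0.02 to 0.087 with 1 library left out. The result depends on the markers listed. Myh11, Acta2 (log2 -0.94) and Des (-0.57, with overlap between the groups) lowered the list mean most. Notch3 itself (-0.27) changed more than Pdgfrb, Rgs5, Cspg4, Vtn and Ndufa4l2.

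Summed endothelial markers were also lower in all knockout libraries. Of 14 tested, 11 had a negative log2 fold change, as had 43.1% of all genes tested. Of the 14, 0 were called (limma), where 0.334% of all genes tested were, and the median was -0.14. Their summed FPKM was 197 to 210 in knockout and 217 to 235 in wild type. The arterial connexin genes Gja4 and Gja5 had log2 fold changes of -0.40 and -0.44, and Kdr, a receptor for vascular growth factor, had 0.16. Sums of markers of the tissue around the cochlea also differed without overlap. Summed FPKM of the adipocyte list was 4.51 to 12.3 in knockout and 15.4 to 33.2 in wild type, and of the middle ear epithelium list 13.9 to 104 and 393 to 744. In wild type most of the latter was Bpifa1, at 336, 608 and 402 FPKM, against 0.0777, 8.34 and 93.3 in knockout. Muc5b and Reg3g were also lower in all knockout libraries, Lcn2 was higher in all of them (log2 0.83), and Bpifb1, Ltf and Scgb1a1 overlapped. Of these lists, 2 adipocyte markers and 1 middle ear marker were at 0 in at least 1 library. The summed skeletal muscle list overlapped, at 29.1 to 234 against 130 to 573 FPKM, as did the Schwann cell, osteoblast and chondrocyte lists. The part of vessel content and of surrounding tissue in the Notch3 values was not tested.

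**Figure D3:**
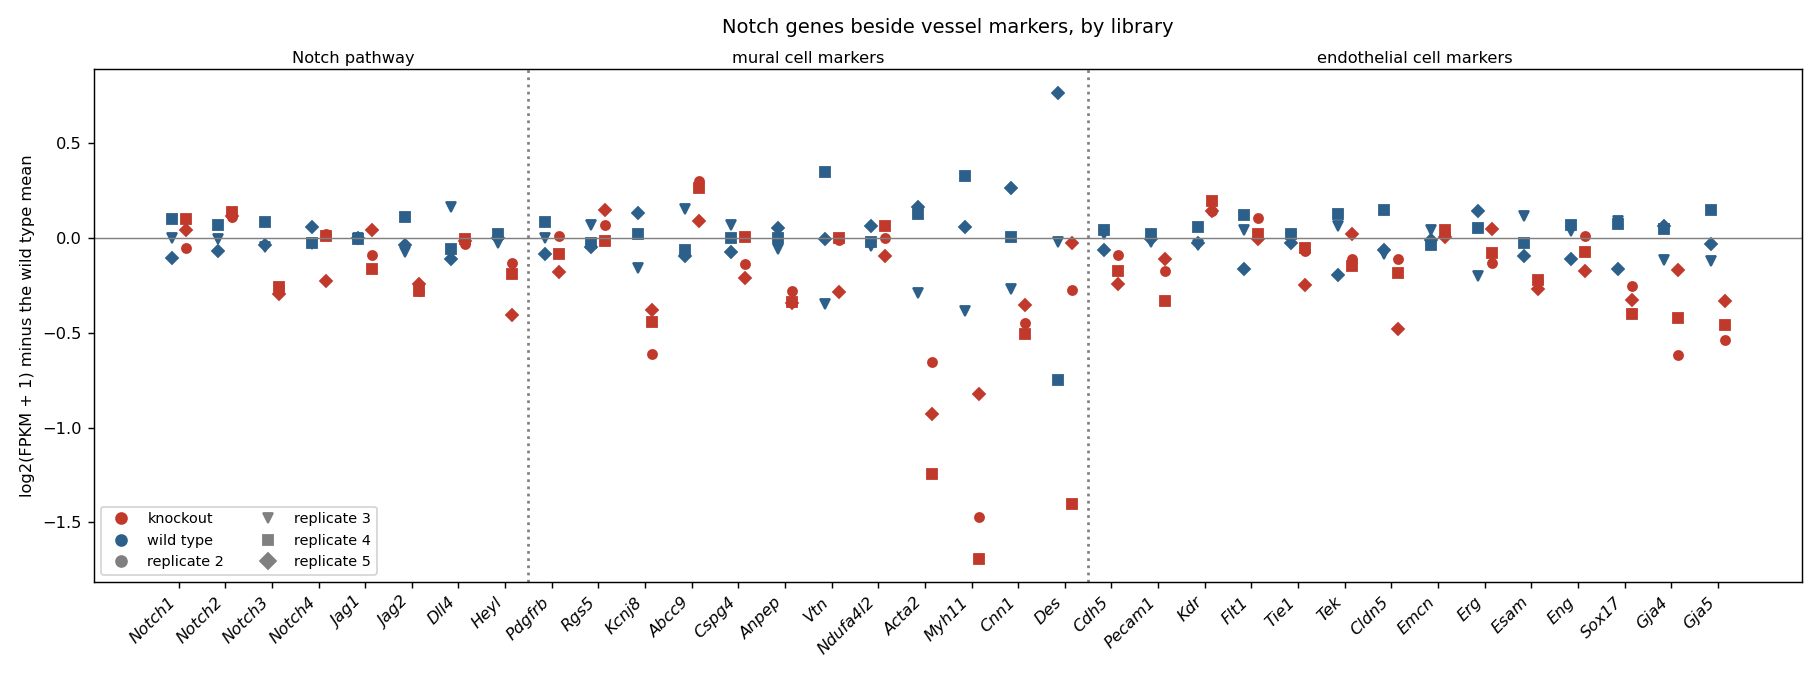
Log2(FPKM + 1) minus the wild type mean (vertical axis) in each library for Notch receptors, ligands and Heyl and for all tested markers of mural and endothelial cells, with wild type in blue and knockout in red. Notch3, Jag2 and Heyl are lower in all knockout than in all wild type libraries, as are Acta2, Myh11, Kcnj8, Anpep and Cnn1 of the mural list, whereas Notch1, Notch4 and Dll4 overlap.

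Jag1 and the members listed under the sensory epithelium were set beside supporting cell markers in the same way. Of 13 supporting cell markers tested, 9 had a positive log2 fold change, as had 8006 of all 14072 genes tested. Of the 13, 0 were called (limma), where 0.334% of all genes tested were. The summed FPKM of the 14 listed was 693 to 740 in knockout and 631 to 659 in wild type. Sparcl1 alone gave 273 to 284 of this sum in knockout and 237 to 244 in wild type, a large part of the difference. All 10 hair cell markers tested had a positive log2 fold change, with 0 called and a median of 0.16, and the summed FPKM of the 14 listed was 45.5 to 50.1 against 39.7 to 42.9, with 1 of them, Slc26a5, at 0 in knockout 4. The part of sensory cell content in the values of these members was not tested. Relative to the mean log2 level of the supporting cell list, Lfng stood at -0.49, -0.46 and -0.75 in the knockout libraries and at -0.41, -0.42 and -0.44 in the wild type libraries, so that the groups no longer overlapped, with a difference of -0.14. Jag1 differed likewise by -0.14, without overlap, and Dll1 by -0.13, with overlap. Without knockout 5 the difference of Lfng was -0.050, and without knockout 4 that of Jag1 was -0.077 and that of Dll1 -0.011. Without wild type 4 that of Dll1 was -0.051, and without knockout 2 it was -0.19. Hes5, with 0 to 7 fragments a library, differed by -0.21, without overlap. Because the list was itself mostly higher in knockout (median log2 fold change 0.098), an unchanged gene comes out lower on this scale. The share of all genes without overlap on it was not computed, and these differences were not tested. Sox2, the factor that maintains supporting cells, went against the list, at 6.89, 8.19 and 7.98 FPKM in the knockout and 9.13, 11.1 and 8.21 in the wild type libraries. Fgfr3 (log2 -0.06), Lgr5 (-0.08) and Fabp7 (-0.05) were also negative, with overlap between the groups.

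The rest of the pathway was followed in a list of 56 other genes, of which 55 were in the table and 49 were tested. None was called (0 higher, 0 lower, limma adjusted p under 0.05), and 13 had an unadjusted p under 0.05 (4 higher, 9 lower), against 17.6% of all genes tested (1489 higher, 983 lower). With voom 1, Adam10, was called, against 1.99% of all genes. The groups did not overlap in 7 genes that were higher and 11 that were lower in knockout, where 15.2% and 9.54% of all genes tested did not. The median log2 fold change of the 49 genes was -0.04.

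Among the other receptors and ligands, Notch4 of endothelium (log2 -0.06) and its ligand gene Dll4 (-0.02) overlapped between the groups. Jag2, a ligand of hair cells and of arteries chosen here after its values were seen, had 5.30, 5.30 and 5.45 FPKM in the knockout libraries and 6.24, 7.24 and 6.45 in the wild type libraries, without overlap (log2 -0.27, SE 0.064, limma adjusted p = 0.128). Dlk1, a non-canonical ligand of precursor cells of fat and muscle, was at 1.496, 0.898 and 1.33 FPKM in the knockout against 1.43, 1.77 and 2.63 in the wild type libraries (log2 -0.38, SE 0.172, limma adjusted p = 0.306). Its groups overlapped, and its log2 fold change was -0.22 without wild type 5, where that of Jag2 was -0.28. Dner, an atypical ligand of neurons and the most abundant of the list, was at 9.17 and 8.73 FPKM (means of knockout and wild type).

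Heyl, a target of Notch3 in smooth muscle, was the Hes or Hey gene outside the members with the highest level. It had 13.1, 12.5 and 10.7 FPKM in the knockout libraries and 14.2, 14.7 and 14.4 in the wild type libraries, without overlap (log2 -0.24, SE 0.074, limma adjusted p = 0.176; log2 -0.16 without knockout 5). Hes6, an inhibitor of Hes1, overlapped between the groups (log2 -0.05), and Hes2, Hes3 and Hes7 were at most at 0.219 FPKM in any library and were not tested.

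Enzymes that cut the receptor had a median log2 fold change of 0.07 over 10 genes. Adam10, the protease of the first cut, had the largest positive difference of the pathway, with 33.6, 31.5 and 34.9 FPKM in the knockout libraries and 28.6, 26.2 and 22.4 in the wild type libraries. The groups did not overlap (log2 0.37, SE 0.088, 95% interval 0.16 to 0.57, limma adjusted p = 0.128; by voom 0.38, adjusted p = 0.0371). Of gamma-secretase, Ncstn was at 39.4 and 40.0 FPKM and overlapped. Among the enzymes that put sugars on the receptor, Eogt, which adds O-GlcNAc, was at 7.18 ± 0.136 and 6.62 ± 0.126 FPKM (SD, n = 3; log2 0.10, limma adjusted p = 0.317), and Rfng was at 18.8 and 20.2 FPKM with overlap.

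Ubiquitin ligases of the pathway differed in direction. Of those that act on ligands, Neurl1b (log2 -0.23, limma adjusted p = 0.205) and Mib2 (-0.13, limma adjusted p = 0.189) were lower in all knockout libraries, and Mib1, the main ligase for Delta and Jagged, had a log2 fold change of 0.18 and was higher in all of them. Fbxw7, which marks the active receptor for breakdown, was at 2.86 ± 0.0735 FPKM in knockout and 2.25 ± 0.247 in wild type (SD, n = 3; log2 0.25, limma adjusted p = 0.187). Dtx3, a Deltex family ligase and the most abundant gene of the list of receptor turnover, was at 66.1 ± 2.40 and 78.2 ± 4.97 FPKM (SD, n = 3; log2 -0.24, limma adjusted p = 0.128). In the nuclear complex, Rbpj overlapped at 5.89 and 6.08 FPKM, Maml2, a coactivator, had a log2 fold change of 0.16 (0.057 without knockout 5), and Ctbp1, a corepressor, of -0.11.

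**Figure D4:**
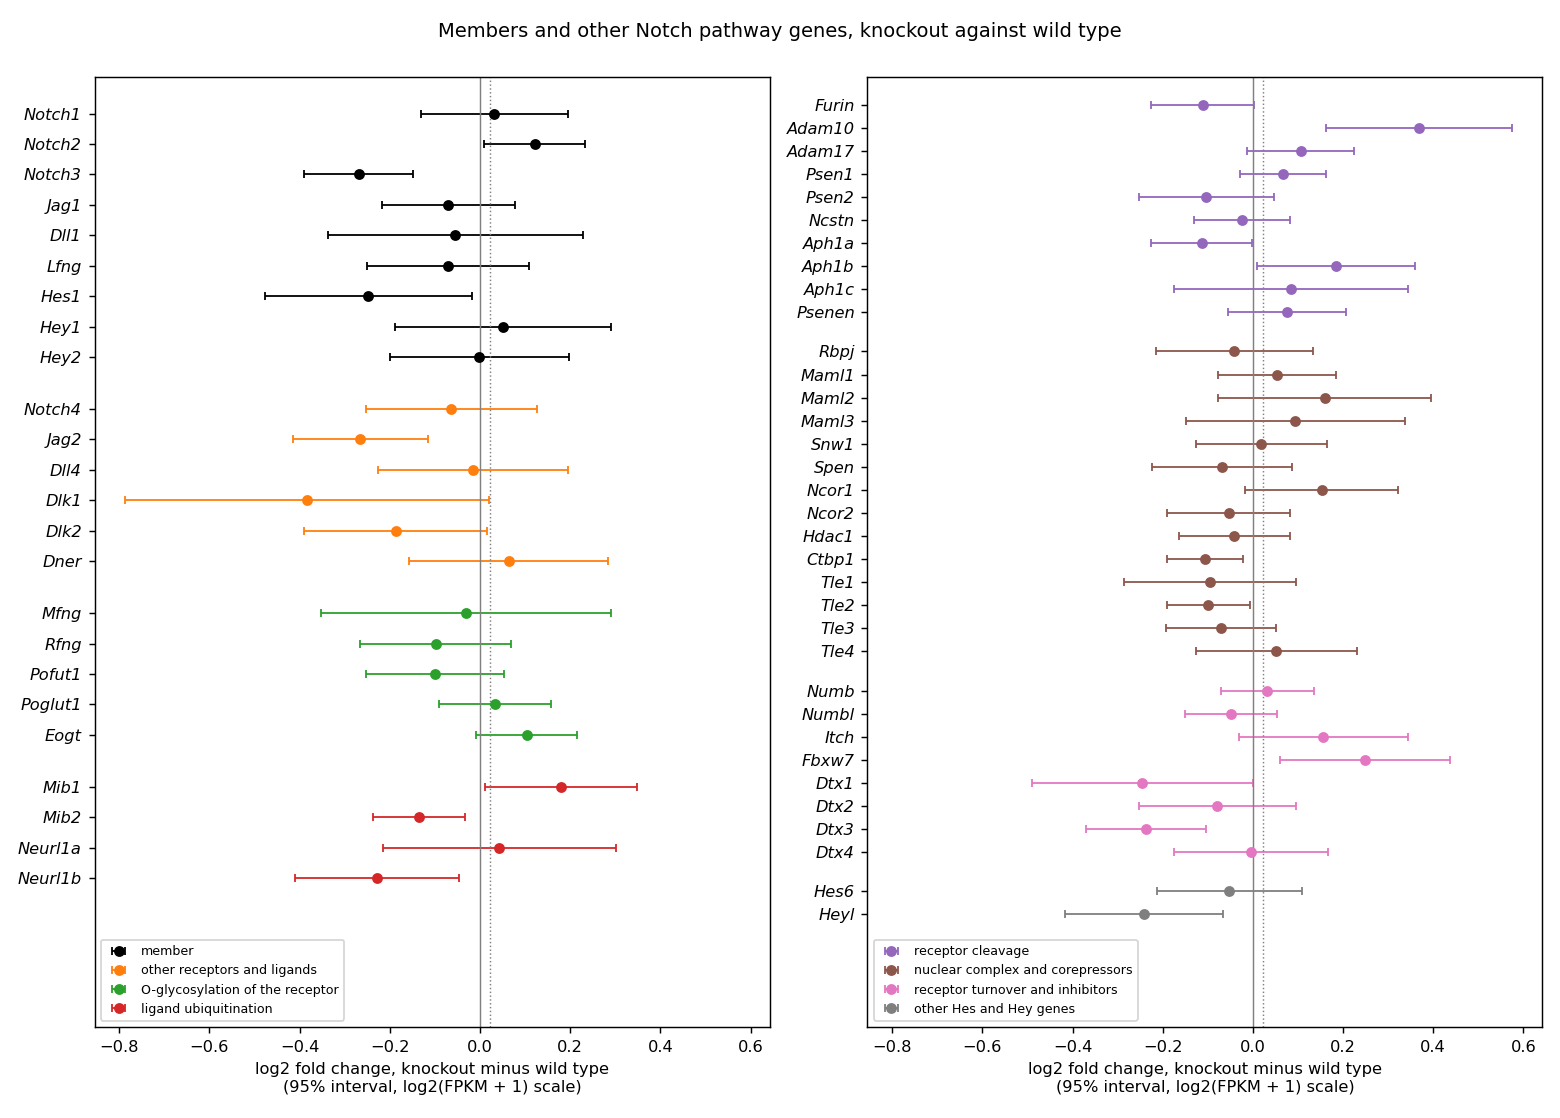
Log2 fold change, knockout minus wild type, on the log2(FPKM + 1) scale with its 95% interval for the 9 tested members (black) and 49 other pathway genes (coloured by list); the solid line is 0 and the dotted line is the median of all genes tested, 0.02. Notch3 at -0.27 and Adam10 at 0.37 have intervals clear of 0, as have several others, and no gene passed the adjusted threshold.

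Over the 6 libraries, the genes outside the members whose log2(FPKM + 1) was most like that of Notch3 were Jun, a stress and growth factor response gene (Pearson r = 0.993), Plec, a cytoskeletal linker (0.993), and Bvht, a long non-coding RNA (0.99), out of 8031 genes with a mean of at least 5 FPKM. This is a description over 6 libraries that share the 2 groups, and 2.52% of those genes had an r above 0.9. Jun had 19.6, 18.9 and 18.0 FPKM in the knockout libraries and 23.2, 25.7 and 23.6 in the wild type libraries. That these groups did not overlap follows largely from the choice, since Notch3 itself separates them. Bvht was called (log2 -0.50, limma adjusted p = 0.0457), as were 0.334% of all genes tested, and Jun and Plec were not. No single library was high or low throughout the 9 tested members: knockout 4 and wild type 4 were the highest library for 3 members each, and knockouts 4 and 5 and wild type 5 the lowest for 3 each.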

How the data were processed

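The authors deposited FPKM values of 6 cochlea libraries in 1 table. Their genome build was GRCm38, per the submitters' processing notes, and their kit VAHTS Universal V6, per the labels' protocols. Aligner, counting tool and strand setting: not given in the sources used here. Multiplying FPKM by GENCODE M21 exon length gave whole steps (to 0.01 fragment plus a relative 1e-06) for 29933 genes in all libraries, from which fragments and depth (15170973 to 17192293) were taken.

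Genes reaching 1 FPKM in 3 or more libraries entered limma on log2(FPKM + 1) (lmFit, eBayes with a trend), two-sided, Benjamini-Hochberg adjusted over all genes tested, threshold 0.05. On this scale changes of low genes come out too small. The fit was tested on simulated data. Named genes were the members and, from each pathway list, called genes or else the gene with the largest absolute log2 fold change and that with the highest mean. The 3 genes most like Notch3 were taken by Pearson r. The same was planned for Hes5 and left out, since it had 0 to 7 fragments. The alternatives tried were voom on recovered fragments, a sex term, a replicate block, other pseudocounts and filters, median-ratio scaling, 2 eBayes settings, weights per library, protein-coding genes alone and each library left out. Genes named outside this rule (Jag2, Mib1, Notch4, Dll4, Rbpj, Snw1, Nrarp, Hes2, Hes3, Hes6, Hes7 and single markers) were chosen after their values were seen. Members and lists were chosen with earlier results of these data known. Fits ran in limma 3.58.1 (R 4.3.3). Tables and plots used pandas 2.3.3, numpy 2.4.6 and matplotlib 3.10.9 (Python 3.11.15).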

Additional observations from a re-analysis of the deposited data

How the results depend on the processing

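No member and no other pathway gene was called in any of 18 alternatives other than voom on recovered fragments, which called 1 member (Notch3, log2 -0.29, adjusted p = 0.0272) and 1 pathway gene (Adam10). Over all genes, 47 were called (18 higher, 29 lower), and with median-ratio scaling 48 (11 higher, 37 lower), a scaling that moved the median of all genes from 0.02 to -0.00440 (log2). The count was 19 without a filter on low values, 19 without the eBayes trend, 104 with library weights, 24 with sex as a covariate and 341 with voom. Leaving out 1 library gave 10 to 98 calls (10, 13 and 98 without knockouts 2, 4 and 5, and 12, 11 and 16 without wild types 3, 4 and 5). The replicate numbers 4 and 5 occur in both groups and are not said to pair animals. Deviations from the group means correlated across genes at 0.141 and 0.1498 for the same-numbered pairs. These values were higher than for any other pair (-0.125 to 0.110), and whether the numbers mark a pairing was not tested. With the number as a replicate block 22 genes were called, 0 of them members. In that fit knockout 2 and wild type 3 have no partner, so the difference rests on replicates 4 and 5 alone. Notch2, Notch3, Jag1 and Hes1 kept their sign in each alternative. Signs turned for genes near 0. Under the block Hey1 was at -0.037, Hey2 at 0.056 and Dner at -0.019, and Hey2 was at 0.0099 with sex as a covariate. With 1 library left out, Notch1 ranged from -0.019 to 0.082, Dll1 from -0.13 to 0.041, Lfng from -0.15 to 0.0054, Hey1 from -0.056 to 0.16, Hey2 from -0.063 to 0.041 and Ncstn from -0.061 to 0.0043. The causes were not tested. Depth limits Hes5 (0 to 7 fragments), and 3 libraries a group limit the tested members.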
